A study of Mus musculus with 8 samples.

Results

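The 10 genes described here make, carry, destroy and sense prostaglandins: the cyclooxygenases Ptgs1 and Ptgs2, the terminal synthases Ptges and Ptgis, the transporter Slco2a1, the breakdown enzymes Hpgd, Ptgr1 and Ptgr2, and the receptors Ptger2 and Ptger4. They were chosen by name from the pathway because 2 of them, Slco2a1 and Ptgr2, were lower in the SmoM2 columns, so the differences of those genes between the groups are descriptions and carry no test. All 10 are listed in the authors' comparison of 30127 genes and in the counts table of 49671 genes, and all 10 passed the expression filter that left 20162 genes for testing.

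RNA came from YFP+ cells sorted from whole lungs of 8 adult mice. Of these, 4 were Gli2creERT2-tdt:R26RYFP/SmoM2 animals, given 200 mg/kg tamoxifen a day for 5 days into the peritoneum. Tamoxifen activates the Cre that these mice carry at Gli2, which turns on YFP, a fluorescent reporter, together with SmoM2, an active form of the Hedgehog transducer Smoothened. The other 4 were Gli2creERT2-tdt:R26RYFP animals, which share the Cre driver and the reporter and lack SmoM2, and the sources used here do not give their tamoxifen dosing. The reporter marks any cell in which the Cre at Gli2 was active, so the sort can hold several stromal types. The deposited values count a fragment as about 4 to 5 units, so libraries held 18.3 M to 22.3 M fragments at 5 units each or 22.9 M to 27.9 M at 4, and the fewest units of any member in a library were the 884 of Ptger2. Smo averaged 129 ± 8.80 CPM in SmoM2 and 124.2 ± 13.3 CPM in control libraries (SD, n = 4 each). The Hedgehog target Gli1 averaged 101.3 ± 21.5 CPM in SmoM2 and 99.3 ± 32.9 CPM in control libraries, a difference within the spread between mice that does not show the labelled activation, and the SmoM2 columns are therefore termed SmoM2-labelled. CPM is the depth-scaled count, here on TMM-scaled library sizes, and libraries are numbered as their columns are.

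Prostaglandins are short-lived lipid signals. Cyclooxygenase turns arachidonic acid into prostaglandin H2, which terminal synthases convert to prostaglandin E2 or prostacyclin. Slco2a1, also called the prostaglandin transporter, takes released prostaglandins back into cells, where Hpgd oxidises them and the reductases Ptgr1 and Ptgr2 act on the oxidised products. The lung is known as a major site of this clearance. Prostaglandin E2 acts on stromal cells largely through the receptors encoded by Ptger2 and Ptger4, which raise cyclic AMP.

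Ptgs2 and Ptgis were by far the most abundant of the 10 genes, and Slco2a1 and Ptger2 the least, when levels were set per kilobase of annotated exon. Over the 8 libraries the median level of Ptgs2 was 149.2 CPM per kb and that of Ptgis 145.5 CPM per kb, and their ranges over libraries (67.8 to 243 and 109.4 to 166.6) overlapped. Ptges followed at 16.6 CPM per kb, with a range of 8.65 to 19.6 that lay wholly below Ptgis. Below Ptges, the medians were 11.5 CPM per kb for Ptgs1, 9.12 for Hpgd, 8.91 for Ptger4, 6.61 for Ptgr1, 4.62 for Ptgr2, 2.38 for Ptger2 and 2.11 for Slco2a1, and each gene overlapped its neighbour in the order except Ptger4 (8.07 to 13.2) and Ptgr1 (5.53 to 7.67). With the longest transcript in place of all exons, Ptgis came first at 177.3 CPM per kb and Ptgs2 second at 153.4, and Slco2a1 stood at 4.02, above Ptger2 at 3.36. Among all 20162 genes tested, Ptgs2 ranked 175 and Ptgis 373 by mean CPM, which is not scaled by length, while Ptger2 ranked 8612.

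**Figure D1:**
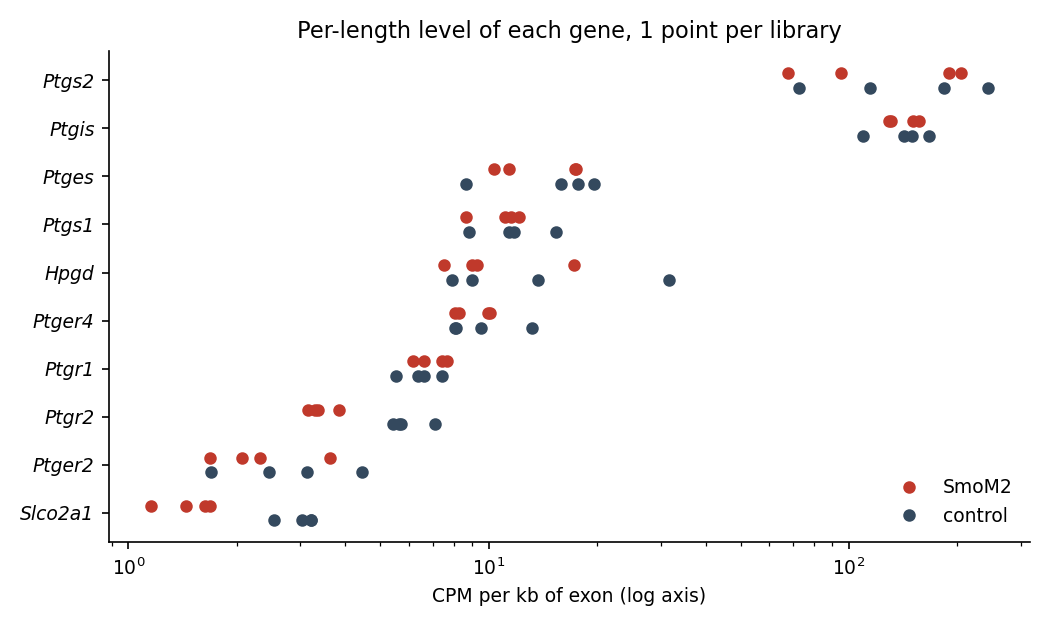
Level of each of the 10 genes in CPM per kb of exon (log axis), 1 point per library, with SmoM2-labelled libraries in red above control libraries in blue. Ptgs2 and Ptgis lie above 67 CPM per kb in every library, and Slco2a1 and Ptgr2 show separate red and blue points.

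The inducible cyclooxygenase Ptgs2, the enzyme that inflammatory signals and mechanical stress switch on in many cells, varied more between mice than between groups. It had 938.3, 869.7, 310.5 and 435.1 CPM in SmoM2-labelled libraries 1 to 4, against 523.9, 842.6, 1113 and 332.5 CPM in control libraries 1 to 4. The high libraries (SmoM2 1 and 2, control 2 and 3) and the low ones came from both groups, and the highest was 3.58 times the lowest. The means were 638.4 ± 312.2 CPM in SmoM2-labelled and 703.0 ± 344.9 CPM in control libraries (SD, n = 4 each). The fitted log2 fold change was −0.14, and its 95% interval ran from −1.17 to 0.89. Both high SmoM2-labelled libraries were read as male from Xist and Y-linked genes and both low ones as female, while each control pair of high and low libraries held both sexes. Within males Ptgs2 averaged 904.0 CPM in SmoM2-labelled and 818.4 CPM in control libraries, and within females 372.8 CPM in SmoM2-labelled and 587.6 CPM in control libraries (2 libraries per group in each sex).

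Ptgs1, the constitutive cyclooxygenase, had 33.6 to 47.1 CPM in SmoM2-labelled and 34.2 to 59.6 CPM in control libraries. Its mean was 42.2 ± 5.97 CPM in SmoM2-labelled and 45.9 ± 10.4 CPM in control libraries (log2 fold change −0.12, 95% interval −0.52 to 0.27). The groups overlapped.

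Ptges, which makes prostaglandin E2 and is often induced with Ptgs2, had 44.8, 68.6, 40.7 and 68.1 CPM in SmoM2-labelled libraries 1 to 4, against 62.2, 69.7, 77.1 and 34.0 CPM in control libraries 1 to 4. Its lowest values were in SmoM2 3 and control 4, which were also the libraries lowest in Ptgs2, but SmoM2 1 was high in Ptgs2 and low in Ptges. It averaged 55.5 ± 14.9 CPM in SmoM2-labelled and 60.7 ± 18.8 CPM in control libraries (log2 fold change −0.13, 95% interval −0.75 to 0.49). Ptgis, the prostacyclin synthase, was the most even of the abundant members, with 330.7 to 402.6 CPM in SmoM2-labelled and 280.7 to 427.6 CPM in control libraries. It averaged 364.1 ± 36.1 CPM in SmoM2-labelled and 363.8 ± 61.5 CPM in control libraries (log2 fold change 0.0010, 95% interval −0.32 to 0.32).

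The summed level of 16 inflammatory cytokine and response genes was lowest in the libraries lowest in Ptgs2 but did not follow Ptgs2 throughout. It was 2098, 3174, 1562 and 2184 CPM in SmoM2-labelled libraries 1 to 4 and 1673, 2752, 3442 and 1353 CPM in control libraries 1 to 4. SmoM2 3 and control 4 were the lowest of their groups, as for Ptgs2, while SmoM2 4, low in Ptgs2, exceeded SmoM2 1. Nfkbia, the inhibitor of NF-kB that NF-kB itself induces, had 414.8, 543.4, 312.2 and 348.1 CPM in SmoM2-labelled libraries 1 to 4 and 298.5, 545.9, 814.0 and 275.5 CPM in control libraries 1 to 4. The part of these inflammatory genes in the spread of Ptgs2 was not tested.

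**Figure D2:**
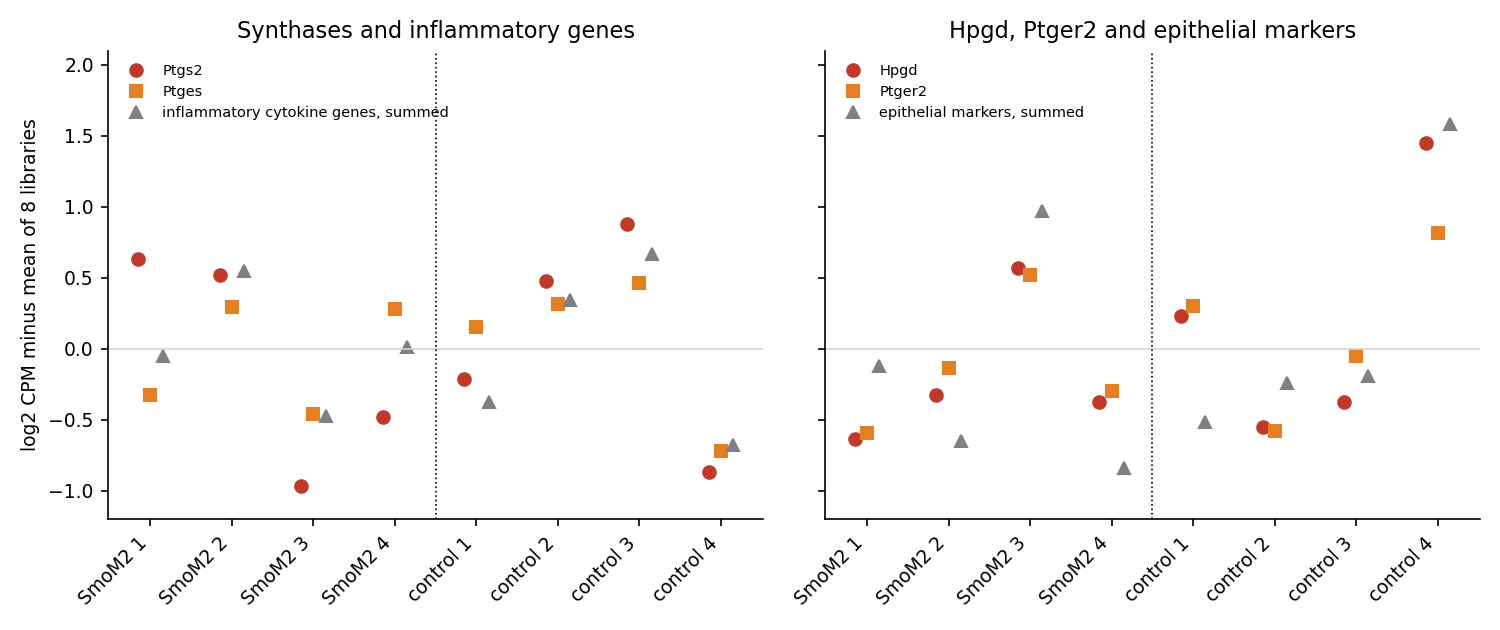
Log2 CPM of each gene or summed list in each library, minus its mean over the 8 libraries, for Ptgs2, Ptges and the inflammatory genes (left) and for Hpgd, Ptger2 and the epithelial markers (right), with SmoM2-labelled libraries left of the dotted line and control libraries right of it. SmoM2 3 and control 4 are the lowest libraries of their groups on the left and the highest on the right.

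Slco2a1 was the member with the largest difference between the groups, and it is a member because of that difference. It had 22.1, 15.6, 19.6 and 22.8 CPM in SmoM2-labelled libraries 1 to 4, against 34.4, 41.2, 43.5 and 43.5 CPM in control libraries 1 to 4. The highest SmoM2-labelled library lay below the lowest control library. It averaged 20.02 ± 3.23 CPM in SmoM2-labelled and 40.7 ± 4.30 CPM in control libraries (SD, n = 4 each), a ratio of 0.492 (log2 fold change −1.02, SE 0.14). The authors' deposited table gives normalised means of 2013 for SmoM2 and 4070 for control, from the same 8 libraries.

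Ptgr2, a reductase of oxidised prostaglandins, was the other gene that set the choice. It had 19.6, 18.7, 22.7 and 19.9 CPM in SmoM2-labelled libraries 1 to 4, against 33.5, 32.1, 33.8 and 42.0 CPM in control libraries 1 to 4. Again no SmoM2-labelled library reached the lowest control, and the highest library of each group was SmoM2 3 and control 4. It averaged 20.2 ± 1.74 CPM in SmoM2-labelled and 35.4 ± 4.498 CPM in control libraries, a ratio of 0.572 (log2 fold change −0.81, SE 0.11), and the ratio in the authors' deposited table is 0.574. Among males, Slco2a1 averaged 18.9 CPM in SmoM2-labelled and 39.0 CPM in control libraries, and among females 21.2 CPM in SmoM2-labelled and 42.4 CPM in control libraries. Ptgr2 averaged 19.2 CPM in SmoM2-labelled and 33.7 CPM in control males, and 21.3 CPM in SmoM2-labelled and 37.1 CPM in control females. In GRCm38, Slco2a1 (ENSMUSG00000032548) lies on the + strand of chromosome 9 from 102988712 to 103096002 and Ptgr2 (ENSMUSG00000072946) on the + strand of chromosome 12 from 84285232 to 84315832, and both are protein-coding.

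The promoters of these genes and of Ptgs2 are shown because Slco2a1 and Ptgr2 were lower together and Ptgs2 varied most among the abundant members. They are RefSeq sequences of GRCm38.p6 from 250 bases before to 50 after the annotated start, all on the + strand, at chr9:103008237-103008536, chr12:84285046-84285345 and chr1:150099781-150100080, and the RefSeq start of Slco2a1 lies inside the longer annotated gene given above. Capitals mark matches to the motifs searched, each on both strands. The first was the TATA box, searched as TATAAA, where some promoters bind the general transcription machinery. The second was the core of the cyclic AMP response element, searched as TGACG. The third was the core of the motif bound by GLI factors, searched as CCACCC, and the motifs do not overlap in these sequences.
Slco2a1: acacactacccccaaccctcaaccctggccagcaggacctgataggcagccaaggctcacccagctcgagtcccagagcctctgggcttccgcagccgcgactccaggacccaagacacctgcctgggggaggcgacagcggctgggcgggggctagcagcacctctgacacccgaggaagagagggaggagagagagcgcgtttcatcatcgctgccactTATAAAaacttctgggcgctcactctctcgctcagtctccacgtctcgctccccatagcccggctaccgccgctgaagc
Ptgr2: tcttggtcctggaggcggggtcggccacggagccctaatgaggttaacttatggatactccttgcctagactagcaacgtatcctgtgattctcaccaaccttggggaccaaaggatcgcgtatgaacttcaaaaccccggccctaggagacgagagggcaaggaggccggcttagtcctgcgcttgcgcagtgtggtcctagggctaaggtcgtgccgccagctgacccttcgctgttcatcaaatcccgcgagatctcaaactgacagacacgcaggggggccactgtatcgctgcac
Ptgs2: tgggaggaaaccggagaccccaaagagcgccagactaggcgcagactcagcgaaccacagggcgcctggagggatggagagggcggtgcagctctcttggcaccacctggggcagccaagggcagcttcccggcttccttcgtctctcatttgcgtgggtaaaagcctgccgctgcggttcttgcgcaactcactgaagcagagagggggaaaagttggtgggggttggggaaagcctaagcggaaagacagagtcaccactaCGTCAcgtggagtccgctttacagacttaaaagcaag
Slco2a1 holds TATAAA, which begins 29 bases before its start. Ptgs2 holds TGACG on the reverse strand, beyond its start, at base 14 counted from it. Ptgr2 holds none of the motifs in this window. TATAAA is in 13.6% of the 32851 promoters of the table, TGACG in 20.8% and CCACCC in 31.5%. The table matched 9 of the 10 genes (not Ptgis). Of those 9, TATAAA was in the promoters of 2, Hpgd and Slco2a1, and TGACG in that of 1, Ptgs2. CCACCC was in the promoters of 4 of those 9, Hpgd, Ptger4, Ptges and Ptgs1. These matches are letters in a window, and binding was not measured.

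The genes nearest to Slco2a1 and Ptgr2 on the chromosome overlapped between the groups. Ryk, 80.4 kb before Slco2a1, averaged 164.6 CPM in SmoM2-labelled and 183.6 CPM in control libraries, and Rab6b, 15.8 kb beyond it, 15.4 CPM in SmoM2-labelled and 17.5 CPM in control libraries with a log2 SE of 1.076. Zfp410, 1.0 kb beyond Ptgr2, averaged 25.4 CPM in SmoM2-labelled and 27.1 CPM in control libraries, and Elmsan1, 66.4 kb before it, 288.2 CPM in SmoM2-labelled and 272.0 CPM in control libraries. This held for all 8 neighbours examined, the nearest protein-coding genes tested, 2 on each side. Exons of Ptgr2 share 1896 bases with those of Gm47484, a noncoding gene on the other strand that was not analysed here, and whether the authors counted by strand is not given in the sources, so reads of the pair cannot be told apart.

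**Figure D3:**
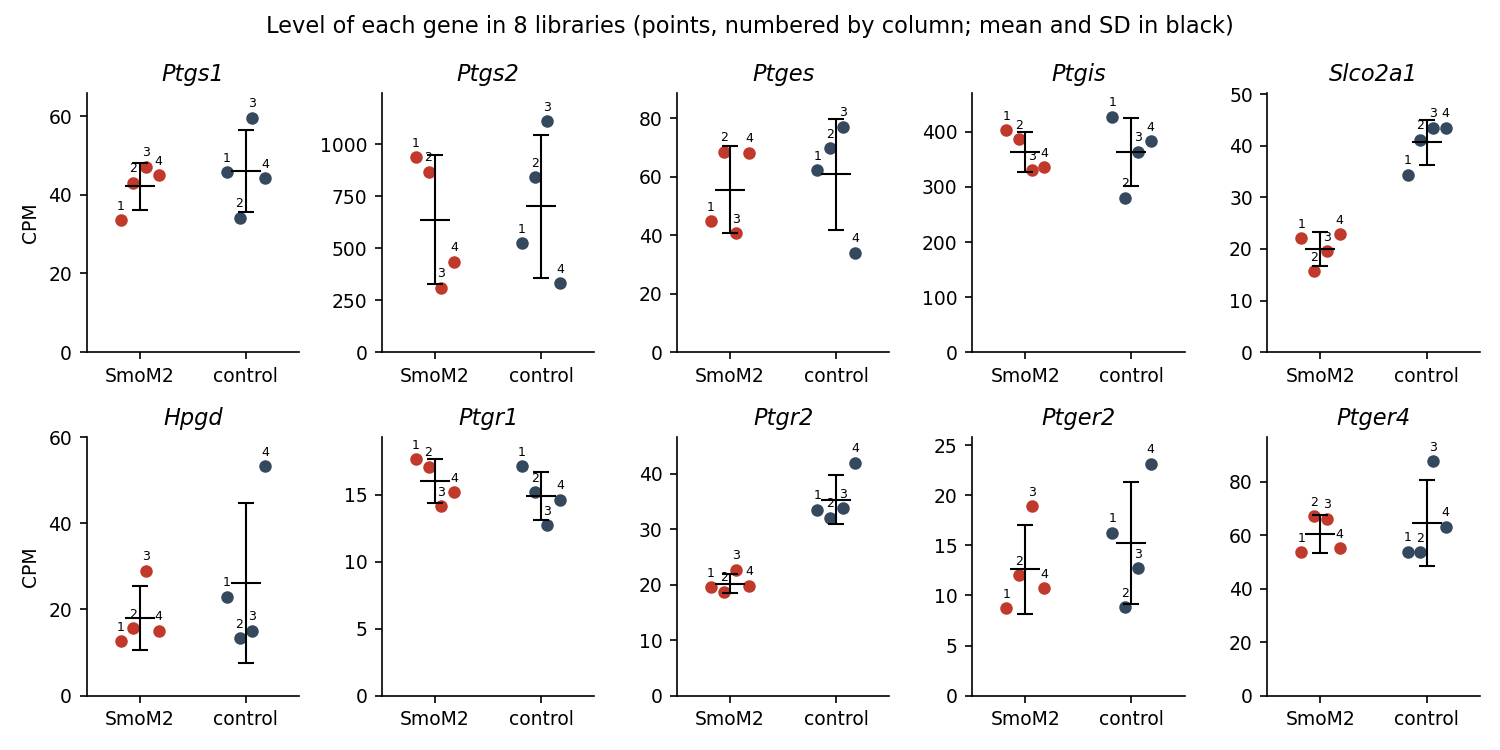
CPM of each of the 10 genes in SmoM2-labelled (red, left) and control (blue, right) libraries, with points numbered by column and the mean and SD (n = 4) in black. The points of the groups are separate for Slco2a1 and Ptgr2 and overlap for the other 8 genes.

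Ptgr1, the other reductase and a leukotriene B4 dehydrogenase as well, varied little between libraries. It had 14.1 to 17.6 CPM in SmoM2-labelled and 12.7 to 17.1 CPM in control libraries, with means of 16.0 ± 1.62 CPM in SmoM2-labelled and 14.9 ± 1.81 CPM in control libraries. Its log2 fold change was 0.10 (95% interval −0.18 to 0.38). Per kilobase of exon, SmoM2-labelled libraries had 6.16 to 7.67 CPM per kb of Ptgr1 and 3.16 to 3.83 CPM per kb of Ptgr2, without overlap, and control libraries had 5.53 to 7.44 CPM per kb of Ptgr1 and 5.41 to 7.09 CPM per kb of Ptgr2. With the longest transcripts the SmoM2-labelled ranges overlapped, since Ptgr2 then stood at 5.91 to 7.18 CPM per kb. The control ranges then did not, with Ptgr2 at 10.1 to 13.3 CPM per kb, above Ptgr1. The order of Ptgr1 and Ptgr2 in each group therefore depends on the length used.

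Hpgd, the dehydrogenase that inactivates prostaglandin E2, was highest in 1 library of each group. It had 12.6, 15.6, 29.0 and 15.1 CPM in SmoM2-labelled libraries 1 to 4, against 23.0, 13.4, 15.1 and 53.3 CPM in control libraries 1 to 4. SmoM2 3 and control 4 stood above the rest of their groups. It averaged 18.1 ± 7.38 CPM in SmoM2-labelled and 26.2 ± 18.6 CPM in control libraries (log2 fold change −0.54, 95% interval −1.59 to 0.52), and the log2 fold change was 0.08 without control 4.

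The receptor gene Ptger2 had its highest values in the same 2 libraries. It had 8.74, 12.0, 18.9 and 10.7 CPM in SmoM2-labelled libraries 1 to 4, against 16.3, 8.81, 12.7 and 23.2 CPM in control libraries 1 to 4. It averaged 12.6 ± 4.41 CPM in SmoM2-labelled and 15.2 ± 6.09 CPM in control libraries (log2 fold change −0.28, 95% interval −1.02 to 0.47), and the log2 fold change was −0.0003 without control 4. Exons of Ptger2 overlap those of noncoding genes on the other strand, of which Gm17173 had at most 0.687 CPM in any library.

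Surfactant and other alveolar epithelial markers were highest in SmoM2 3 and control 4, the libraries highest within their groups in Hpgd, Ptger2 and Ptgr2. Of 14 epithelial markers, 9 were highest of their group in both libraries, and Scgb1a1, Epcam, Foxj1, Krt8 and Krt18 were not. Scgb1a1, a club cell gene, was lowest of its group in both, at 23.5 CPM in SmoM2 3 and 33.8 CPM in control 4. Krt8 had 4.05 to 7.25 CPM in SmoM2-labelled and 8.03 to 15.6 CPM in control libraries, and Krt18, its keratin partner, 3.504 to 5.20 CPM in SmoM2-labelled and 6.20 to 12.2 CPM in control libraries. These were the 2 of the 14 without overlap, against 492 of 20162 genes tested (2.44%). Krt8, Krt18, Scgb1a1 and Sftpb are named after their values were seen. The summed level of the 14 genes was 518.1, 358.7, 1104 and 314.5 CPM in SmoM2-labelled libraries 1 to 4 and 394.3, 476.5, 493.7 and 1685 CPM in control libraries 1 to 4. The surfactant gene Sftpc had 563.9 CPM in SmoM2 3 and 991.8 CPM in control 4, and 86.4 to 212.6 CPM in the other 6 libraries. None of the 14 markers was at 0 in all libraries. Of the 14, 12 had a lower mean in SmoM2-labelled libraries, against 10290 of 20162 genes tested. Control 4 was the highest control library for 9 of the 14 and raised their control means. Sftpb averaged 67.2 CPM in SmoM2-labelled libraries, against 37.6, 46.9, 46.2 and 207.0 CPM in control libraries 1 to 4. The count of 12 was not redone without control 4. In bulk RNA, fewer cells of a type and less RNA per cell cannot be told apart, and the part of epithelial RNA in the values of Hpgd, Ptger2 and Ptgr2 was not tested.

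Ptger4, the other receptor that raises cyclic AMP, had 53.6 to 67.0 CPM in SmoM2-labelled and 53.7 to 87.7 CPM in control libraries. It averaged 60.5 ± 7.08 CPM in SmoM2-labelled and 64.6 ± 16.0 CPM in control libraries (log2 fold change −0.10, 95% interval −0.48 to 0.29). Control 3 was highest and the other 7 libraries lay within 53.6 to 67.0 CPM. Exons of Ptger4 share 82 bases with Ttc33 on the other strand, which had 14.4 to 23.4 CPM, and 1015 bases with the pseudogene Gm15937, at most 0.275 CPM.

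Over the 10 genes, 2 had a higher and 8 a lower mean in SmoM2-labelled libraries, with a median log2 fold change of −0.13, against 10290 lower of 20162 and a median of −0.004 over all genes tested. EdgeR's quasi-likelihood test across all genes called none of the 10 and 0 of 20162 genes (0%) at an adjusted p under 0.05, and counted 756 genes (3.75%) at an unadjusted p under 0.05. The 8 members that did not set the choice each had an edgeR adjusted p of 0.9999. DESeq2 called 67 of 24384 genes (0.275%), Slco2a1 and Ptgr2 among them, limma-voom called 0 (0%), and the authors' deposited table has 15 of 30127 (0.0498%), none of them a member. The groups did not overlap for 2 of the 10 members, and for 492 genes (2.44%) over the whole table, of which 286 (1.42%) were lower in SmoM2-labelled libraries. Since the members were chosen on this contrast, nothing is read from these counts.

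**Figure D4:**
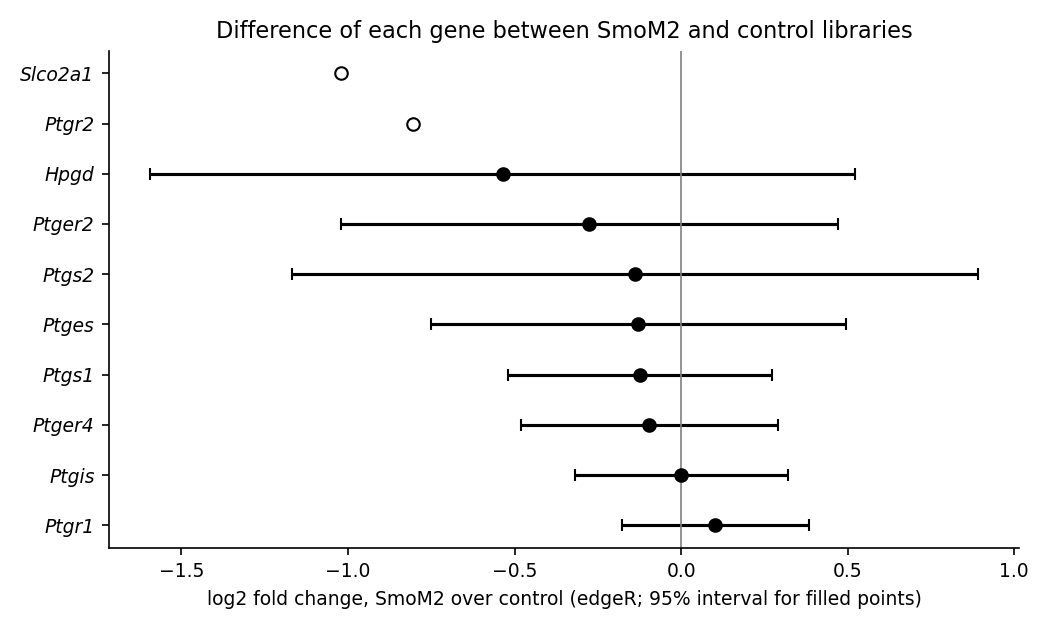
Log2 fold change of each gene, SmoM2-labelled over control, with the 95% interval from edgeR's fit over all genes. Slco2a1 and Ptgr2 (open points, at −1.02 and −0.81) set the choice of the list and are shown with no interval, and the intervals of the other 8 genes (filled points) span 0.

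Mesothelium is the lining of the lung surface. All 11 mesothelial markers had a lower mean in SmoM2-labelled libraries, 5 of them without overlap, and their summed level was 119.6 to 239.3 CPM in SmoM2-labelled and 294.7 to 525.9 CPM in control libraries. Over all genes tested, 10290 of 20162 had a lower mean, and 286 (1.42%) were lower without overlap. Msln averaged 38.3 ± 12.5 CPM in SmoM2-labelled and 101.2 ± 31.9 CPM in control libraries, and Upk3b 38.4 ± 12.9 CPM in SmoM2-labelled and 91.3 ± 29.4 CPM in control libraries. EdgeR's test across all genes called none of the 11, and DESeq2 called Msln (adjusted p 0.00316), Upk3b (adjusted p 0.0242) and Gpm6a (adjusted p 0.0481). In all, DESeq2 called 67 of 24384 genes (0.275%).

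Endothelium is another place where Slco2a1 is known to be expressed. Of 12 endothelial markers, 10 had a lower mean in SmoM2-labelled libraries (10290 of 20162 over all genes tested), with a list median log2 fold change of −1.05. Control 4 was the highest control library for 9 of the 12, and the count and median were not redone without it. Flt1 averaged 6.90 CPM in SmoM2-labelled libraries, against 4.79, 6.33, 8.31 and 22.3 CPM in control libraries 1 to 4. EdgeR called none of the 12, and DESeq2 called Esam (adjusted p 0.00834), against 0.275% of genes in all. The summed levels of the 12 markers overlapped, at 124.9 to 194.7 CPM in SmoM2-labelled and 123.3 to 263.5 CPM in control libraries. The exceptions in direction, Tek and Ramp2, had the highest CPM of the 12. Tek averaged 59.6 ± 29.9 CPM in SmoM2-labelled and 37.2 ± 15.1 CPM in control libraries, and Ramp2 50.4 ± 13.5 CPM in SmoM2-labelled and 40.9 ± 4.83 CPM in control libraries. The groups did not overlap for 2 of the 12, against 492 of 20162 genes tested (2.44%). These 2 were Kdr and Esam, which are named with Flt1, Pecam1 and Cdh5 after their values were seen. Kdr had 8.37 to 16.3 CPM in SmoM2-labelled and 16.6 to 34.2 CPM in control libraries, and Esam 2.60 to 4.73 CPM in SmoM2-labelled and 7.22 to 15.3 CPM in control libraries. Of the 12 markers, 8 were highest of their group in both SmoM2 3 and control 4, as Ptgr2, Hpgd and Ptger2 were, Pecam1 and Cdh5 among them. Pecam1 had 7.40 to 11.0 CPM in SmoM2-labelled libraries, against 8.28, 9.42, 7.63 and 32.8 CPM in control libraries 1 to 4, and Cdh5 had 3.01 to 10.4 CPM in SmoM2-labelled libraries, against 4.49, 8.60, 7.47 and 44.4 CPM in control libraries 1 to 4. Without control 4 the log2 fold change of Slco2a1 was −0.99 and that of Ptgr2 −0.71. No mesothelial or endothelial marker was at 0 in all libraries, and the part of these cell types in the levels of Slco2a1, Ptgr2, Hpgd and Ptger2 was not tested.

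The summed levels of the other marker lists overlapped between the groups. Over all 20162 genes tested, 9872 had a higher and 10290 a lower mean in SmoM2-labelled libraries, and 492 (2.44%) did not overlap. The 12 immune markers, of which 11 had a higher mean in SmoM2-labelled libraries, summed to 510.0 to 1530 CPM in SmoM2-labelled and 498.9 to 713.4 CPM in control libraries, with SmoM2 4 the highest. Mast cells are rich in prostaglandin D2, and their 7 markers, led by Kit, summed to 4.05 to 10.5 CPM in SmoM2-labelled and 6.60 to 14.7 CPM in control libraries. Smooth muscle genes, led by Mylk, summed to 1014 to 1523 CPM in SmoM2-labelled and 1321 to 1693 CPM in control libraries, and 8 of 9 had a lower mean in SmoM2-labelled libraries. Pericyte markers summed to 645.5 to 774.3 CPM in SmoM2-labelled and 490.6 to 902.5 CPM in control libraries. Alveolar fibroblast markers, with Inmt and Pdgfra the highest in CPM, summed to 7051 to 9910 CPM in SmoM2-labelled and 7219 to 10840 CPM in control libraries, and 8 of 9 had a lower mean in SmoM2-labelled libraries. Control 4 was the highest control library for 7 of the 9, and the count of 8 was not redone without it. Their sum was highest of each group in SmoM2 3 and control 4, as Hpgd, Ptger2 and Ptgr2 were. The part of these cells in the levels of those 3 genes was not tested. Among the 9 markers Wnt2, a ligand of the lung mesenchyme named after its values were seen, averaged 13.5 ± 1.63 CPM in SmoM2-labelled and 25.2 ± 2.09 CPM in control libraries without overlap, with an adjusted p of 0.138 in edgeR and 4.53e-08 in DESeq2, and its part in the levels of Slco2a1 and Ptgr2 was not tested. Adventitial fibroblast markers, led by Gsn and Dcn, summed to 29420 to 49350 CPM in SmoM2-labelled and 28880 to 39860 CPM in control libraries, and 8 of 9 had a higher mean in SmoM2-labelled libraries. The 8 Hedgehog targets summed to 729.2 to 1338 CPM in SmoM2-labelled and 843.3 to 1300 CPM in control libraries.

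In the rest of the eicosanoid pathway neither edgeR nor DESeq2 called a gene. In 4 further lists, 41 of 46 genes passed the filter, of which 25 had a higher and 16 a lower mean in SmoM2-labelled libraries. Among the other synthesis genes the median log2 fold change was 0.07 (10 higher, 6 lower), and it ranged from 0.005 (without control 2) to 0.15 (without control 3) when a library was left out. The highest in CPM were Ptges3, a cytosolic prostaglandin E synthase and HSP90 co-chaperone, at 89.0 ± 12.8 CPM in SmoM2-labelled and 83.6 ± 9.15 CPM in control libraries, the lysosomal phospholipase Pla2g15 (68.7 ± 7.54 CPM in SmoM2-labelled and 70.8 ± 5.39 CPM in control libraries) and the aldose reductase Akr1b3 (52.8 ± 4.12 CPM in SmoM2-labelled and 56.0 ± 3.69 CPM in control libraries). The largest differences in this list were those of Hpgds, the prostaglandin D synthase of blood cells, and the secreted phospholipase Pla2g2d. Hpgds had 1.28, 0.639, 0.770 and 5.98 CPM in SmoM2-labelled libraries 1 to 4 and 0.439 to 0.837 CPM in control libraries, and Pla2g2d had 15.3 CPM in SmoM2 4 and at most 6.97 CPM elsewhere. SmoM2 4 was also the library highest in immune markers, whose part in these values was not tested.

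Other transport and breakdown genes had a median log2 fold change of 0.05 (5 higher, 4 lower), which ranged from −0.03 (without control 3) to 0.19 (without control 4). Slco2b1 and Slco3a1, relatives of Slco2a1 in the organic anion transporter family, overlapped between the groups. Slco2b1 averaged 99.4 ± 32.4 CPM in SmoM2-labelled and 109.4 ± 12.5 CPM in control libraries, and Slco3a1 97.7 ± 13.5 CPM in SmoM2-labelled and 90.7 ± 18.5 CPM in control libraries. Abcc4, which exports prostaglandins, averaged 15.4 ± 1.64 CPM in SmoM2-labelled and 11.0 ± 2.26 CPM in control libraries without overlap (log2 fold change 0.48, SE 0.17, adjusted p 0.9999 in edgeR). Zadh2, a further prostaglandin reductase, averaged 70.3 ± 5.20 CPM in SmoM2-labelled and 62.5 ± 13.8 CPM in control libraries, and Cyp4f18 3.30 ± 2.43 CPM in SmoM2-labelled and 2.07 ± 0.851 CPM in control libraries. Cbr1, a carbonyl reductase of prostaglandins (23.7 ± 0.418 CPM in SmoM2-labelled and 28.7 ± 1.91 CPM in control libraries), and Fam213b, a prostaglandin F synthase gene of the synthesis list (4.53 ± 0.381 CPM in SmoM2-labelled and 6.12 ± 0.989 CPM in control libraries), also did not overlap and are named after their values were seen. In the 4 lists, 3 of 41 measured genes did not overlap, against 492 of 20162 genes tested (2.44%).

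Other prostanoid receptors had a median of −0.06 (3 higher, 4 lower) and the leukotriene genes one of 0.25 (7 higher, 2 lower), with none called. With a library left out, the receptor median ranged from −0.13 (without control 1) to 0.15 (without control 2) and the leukotriene median from −0.03 (without SmoM2 4) to 0.52 (without control 3). Ptgfrn, which binds the prostaglandin F receptor, had the highest CPM, at 704.5 ± 87.5 CPM in SmoM2-labelled and 629.7 ± 82.1 CPM in control libraries, and the F receptor gene Ptgfr averaged 62.5 ± 6.38 CPM in SmoM2-labelled and 58.4 ± 9.69 CPM in control libraries. Ptger1 averaged 25.9 ± 5.45 CPM in SmoM2-labelled and 28.2 ± 1.65 CPM in control libraries, Ptger3 13.3 ± 7.71 CPM in SmoM2-labelled and 10.2 ± 4.10 CPM in control libraries, and the thromboxane receptor gene Tbxa2r 5.31 ± 0.698 CPM in SmoM2-labelled and 5.95 ± 1.80 CPM in control libraries. Of the leukotriene genes, Lta4h averaged 49.9 CPM in both groups, Alox5ap, which presents substrate to lipoxygenase, 12.6 ± 4.56 CPM in SmoM2-labelled and 6.97 ± 2.53 CPM in control libraries, Alox5 3.39 ± 1.44 CPM in SmoM2-labelled and 2.86 ± 1.40 CPM in control libraries and Alox12 1.84 ± 0.890 CPM in SmoM2-labelled and 2.52 ± 0.604 CPM in control libraries.

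Of 12 genes that cyclic AMP can induce, 11 had a lower mean in SmoM2-labelled libraries, against 10290 of 20162 genes tested. The groups overlapped for all 12, and edgeR called none. Their median log2 fold change was −0.16 (−0.29 without control 4 and −0.03 without control 3). The part of Ptger2 and Ptger4 in the levels of these genes was not tested. Fos averaged 4600 ± 1729 CPM in SmoM2-labelled and 5458 ± 732.1 CPM in control libraries, the nuclear receptor gene Nr4a1 3811 ± 663.4 CPM in SmoM2-labelled and 4266 ± 1115 CPM in control libraries, and the phosphatase gene Dusp1 2680 ± 476.8 CPM in SmoM2-labelled and 3024 ± 775.1 CPM in control libraries. Nr4a2 averaged 226.0 ± 42.8 CPM in SmoM2-labelled and 270.0 ± 83.3 CPM in control libraries, and Pde3b, the exception in direction, 42.6 ± 13.8 CPM in SmoM2-labelled and 31.3 ± 6.56 CPM in control libraries. Among the 16 inflammatory genes 9 were higher and 7 lower (median 0.12, from −0.12 without SmoM2 2 to 0.52 without control 3, none called by edgeR). Their values included Vcam1 at 417.5 ± 71.6 CPM in SmoM2-labelled and 470.4 ± 108.5 CPM in control libraries, Tnfaip3 at 296.7 ± 206.1 CPM in SmoM2-labelled and 284.8 ± 106.0 CPM in control libraries, Tnf at 20.1 ± 14.8 CPM in SmoM2-labelled and 9.76 ± 4.54 CPM in control libraries and Il1a at 20.3 ± 14.5 CPM in SmoM2-labelled and 10.2 ± 4.10 CPM in control libraries. Tnf had 41.8 CPM in SmoM2 4 and at most 17.5 CPM elsewhere. Il1a had 40.3 CPM in SmoM2 4 and at most 20.9 CPM elsewhere.

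**Figure D5:**
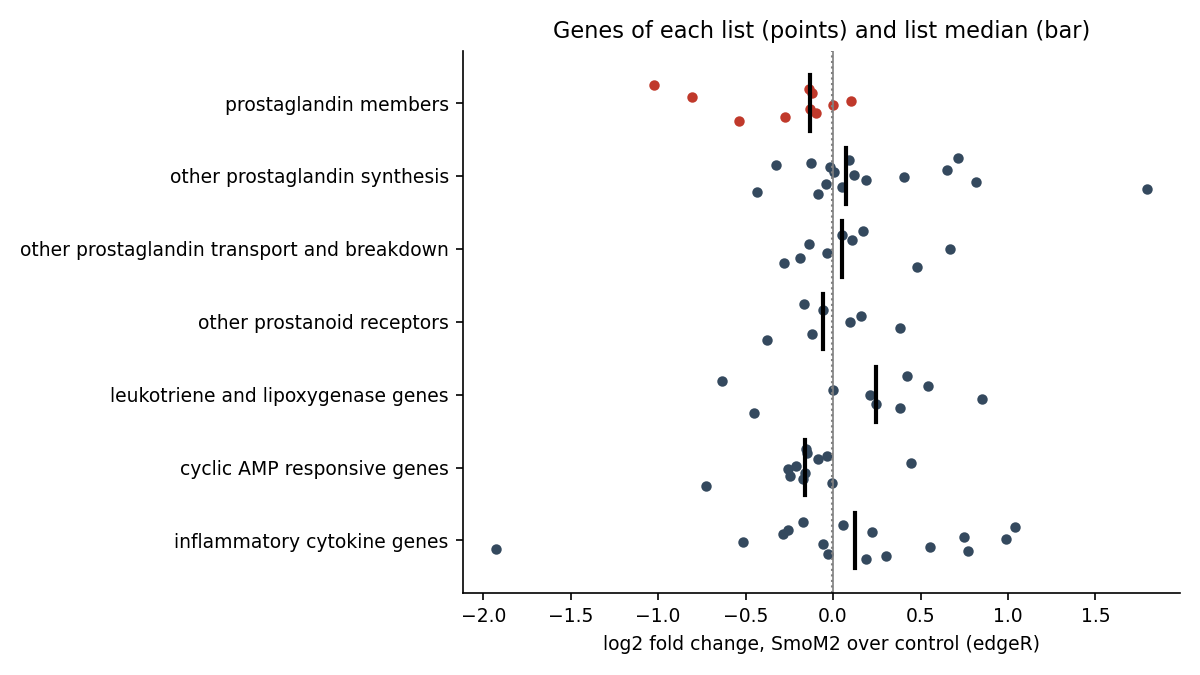
Log2 fold change of each measured gene, SmoM2-labelled over control, for the 10 members (red) and 6 other lists (blue), with the list median as a black bar and the median of all genes tested as a dotted line. List medians lie between −0.16 and 0.25, and single genes spread to both sides of 0.

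Across the 8 libraries, after subtraction of each group's mean, the genes nearest in pattern to Slco2a1 were Rps13, Bbs4, Tmem106c, Hnrnpc and Gm11353, with Pearson r between 0.912 and 0.957. Those nearest to Ptgs2 were Srcap, Snapc1, Elavl1, Hivep2 and Dhx29 (r between 0.981 and 0.997). They are the highest values of the 11394 genes that averaged 5 CPM or more, all from the same 8 libraries, so they are given as a description and have no p. The sets share no gene.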

How the data were processed

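The authors deposited the 8 libraries as an estimated count for each Ensembl gene, in whole numbers that needed no rounding. Per the file headers, the authors' deposited comparison holds a normalised mean signal for each group, a fold change as ratio and as log2, and a p-value with its adjusted form. Tools named in the submitters' processing notes, with no roles, are StringTie, HISAT, DESeq and FastQC, with the mm10 build.

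Genes were tested with edgeR 4.0.16 in R 4.3.3 (quasi-likelihood, robust, TMM, filterByExpr, group as the sole term, Benjamini-Hochberg adjustment over all genes, threshold 0.05). An SE is the size of a log2 fold change divided by the root of its F statistic, and intervals are 95%. DESeq2 1.42.0 and limma 3.58.1 gave alternatives. The code was tested on simulated data. There edgeR called 4 of 50 genes changed 1.5-fold, 23 of 50 changed 2-fold and 45 of 50 changed 4-fold, with 5 false calls. A gene that edgeR did not call can therefore still differ. Column names show the group and a number, not the animal, and the titles number 8 animals, whose spread is what a p-value here measures. No pair of libraries agreed within sampling noise (chi-square per degree of freedom 20.9 to 95.3). The most alike pair, at 20.9, was control 4 and SmoM2 3, which crosses the groups. Control 4 stood at 53.5, 86.4 and 76 from control libraries 1 to 3. Coordinates and lengths are GENCODE M21 (GRCm38).

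The members and lists were chosen with earlier results of these data known. Named genes are the members, the 3 most abundant and the 2 most different measured genes (mean of at least 1 CPM) of each pathway list, 2 abundant genes of marker lists, and the 5 genes nearest in pattern to Slco2a1, Ptgr2 and Ptgs2. Not every such marker gene is printed, and the pattern result for Ptgr2 is not reported here.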

Additional observations from a re-analysis of the deposited data

How the results depend on the processing

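Slco2a1 and Ptgr2 were lower in SmoM2-labelled libraries under every alternative run, with log2 fold changes from −1.09 to −0.924 and from −0.868 to −0.713 when libraries were left out in turn. Both were chosen for being lower in these same libraries, so these values are a description and no support. DESeq2 called 67 genes where edgeR called 0, and leaving out a library gave 0 to 1 genes; that gene, named after its value was seen, was Gm20716 (log2 fold change −14.1, edgeR adjusted p 0.032), without SmoM2 4. The edgeR fits with DESeq2 size factors, no filter, a mean of at least 1 CPM, units divided by 5, units divided by 4 (chosen after seeing the data) or sex as a covariate, and limma-voom, also called 0. Without a library, the log2 fold changes of other members ranged from −0.86 to 0.0759 (Hpgd), −0.245 to 0.025 (Ptgs1), −0.389 to 0.17 (Ptgs2), −0.327 to 0.00405 (Ptges), −0.109 to 0.0879 (Ptgis), −0.539 to −0.000288 (Ptger2), −0.179 to 0.0849 (Ptger4) and 0.0314 to 0.175 (Ptgr1). The sign turned for Ptgs1, Ptgs2, Ptges, Ptgis and Ptger4 without control 3, for Hpgd without control 4, for Ptgs2 also without SmoM2 3 or 4, and for Ptgis also without control 2 or SmoM2 1 or 2; with no filter Ptgis was at −0.00266. The cause was not tested. No paired analysis was possible because the titles give 8 different animals and no number shared between the groups. Exon length moved the per-kilobase levels of Slco2a1, Ptgr2, Ptgs1, Ptgis and Ptger4 by more than their spread. At 4 to 5 units a fragment, the lowest member value rests on about 177 to 221 fragments.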
